A study of Mus musculus with 2 samples.

Results

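The 40 genes described here encode subunits of 4 classes of ATP-dependent chromatin remodelers: the BAF (SWI/SNF) complexes, the NuRD complex with the wider CHD family, the ISWI enzymes and the INO80 family. They were chosen as a list of gene symbols, matched through the GENCODE mouse annotation, and made up 40 of the 43346 genes in the deposited gene tables. ES-E14 is an embryonic stem cell line from a male embryo of mouse strain 129/Ola, grown here without any treatment named in the labels. Total RNA from these cells was sequenced as 1 group of 2 libraries, numbered by the labels as biological replicates 1 and 2. Both carry the same source sample in their labels, and nothing in them names separate cultures. Whether the spread between the libraries is technical or biological cannot be told from the labels. With 1 group there was no condition to compare, and the question was which of the alternative subunits of each complex the cells transcribed and how firmly the 2 libraries fixed their order.

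Chromatin remodelers use the energy of ATP hydrolysis to slide, eject or exchange nucleosomes, and each complex is built around 1 ATPase. Most other positions in the complex can be filled by any of several paralogs, proteins that arose by gene duplication, so that a cell type assembles its own version of the complex. Embryonic stem cells are known for a BAF complex with BRG1 and BAF53A, and they need BRG1 and the NuRD scaffold MBD3 for normal self-renewal and differentiation, whereas BRM and BAF53B are typical of differentiated cells and of neurons.

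Levels are in TPM, a share of the library's transcripts that is corrected for transcript length, in the order replicate 1, replicate 2, and mean values carry the SD over n = 2 libraries. Differences between genes are on the log2(TPM + 1) scale, which understates those of low genes. The gene tables held 43163300 and 45573512 expected counts, the estimated number of reads per gene, of which the 40 genes took 115536 (0.268%) and 138884 (0.305%). The cells carried the markers of their label: 7 of 7 pluripotency markers were at 1 TPM or more in both libraries, from Dppa5a (613.37 and 597.01 TPM) down to Nanog (17.19 and 31.91 TPM). Markers of other cell types were not all absent. The 8 fibroblast markers summed to 47.58 and 154.05 TPM, led by Acta2 at 33.04 and 100.23 TPM, with Lum at 0 in both libraries. Of these 8, 6 were higher in replicate 2, and 4 were past 2-fold, against 2.56% of protein-coding genes 2-fold higher there. The 4 were Acta2, Col1a1 (7.21 and 28.84 TPM), Col1a2 (3.58 and 12.06 TPM) and Col3a1 (1.21 and 10.47 TPM). Thy1 was lower, at 2.27 and 1.62 TPM. The source of this difference was not tested. The 8 neuron markers summed to 71.26 and 67.18 TPM, led by Stmn2 at 54.6 and 38.78 TPM, with Dcx at 0.01 and 0 TPM. Of these 8 only Stmn2 and Tubb3 (13.28 and 27.12 TPM) reached 1 TPM in both libraries, and they moved in opposite directions. The 8 muscle markers summed to 3.53 and 8.8 TPM, from Des at 2.13 and 4.76 TPM down to Myod1 at 0.01 TPM in both. In bulk RNA, fewer cells of a type and less RNA per cell cannot be told apart.

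Of the 40 remodeler genes, 36 were detected at 1 TPM or more in both libraries, against a background of 46.3% of the 21461 protein-coding genes in the tables. At 10 TPM or more in both libraries stood 16 members, where the background was 14.3%. The median of the 40 was 8.15 and 9.45 TPM, against 0.76 and 0.94 TPM for all protein-coding genes and 5.76 and 6.8 TPM for those detected in both libraries. The 4 members that missed the limit were Actl6b and Smarca2 in both libraries, Chd5 in replicate 2 and Smarca1 in replicate 1, and each has a paralog among the highest members. TPM here is a share of all rows, noncoding and mitochondrial genes included, so the limit depends on that total. Rescaled to protein-coding genes, Smarca4 stood at 106.2 and 122.1 TPM. On that scale Smarca2 stood at 0.96 and 2.93, Chd5 at 5.90 and 3.01 and Smarca1 at 5.04 and 7.08 TPM. Levels ran from Chd4 at 69.4 ± 4.88 TPM, followed by Actl6a, Mbd3 and Smarca4, down to Actl6b, for which no read was counted.

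**Figure D1:**
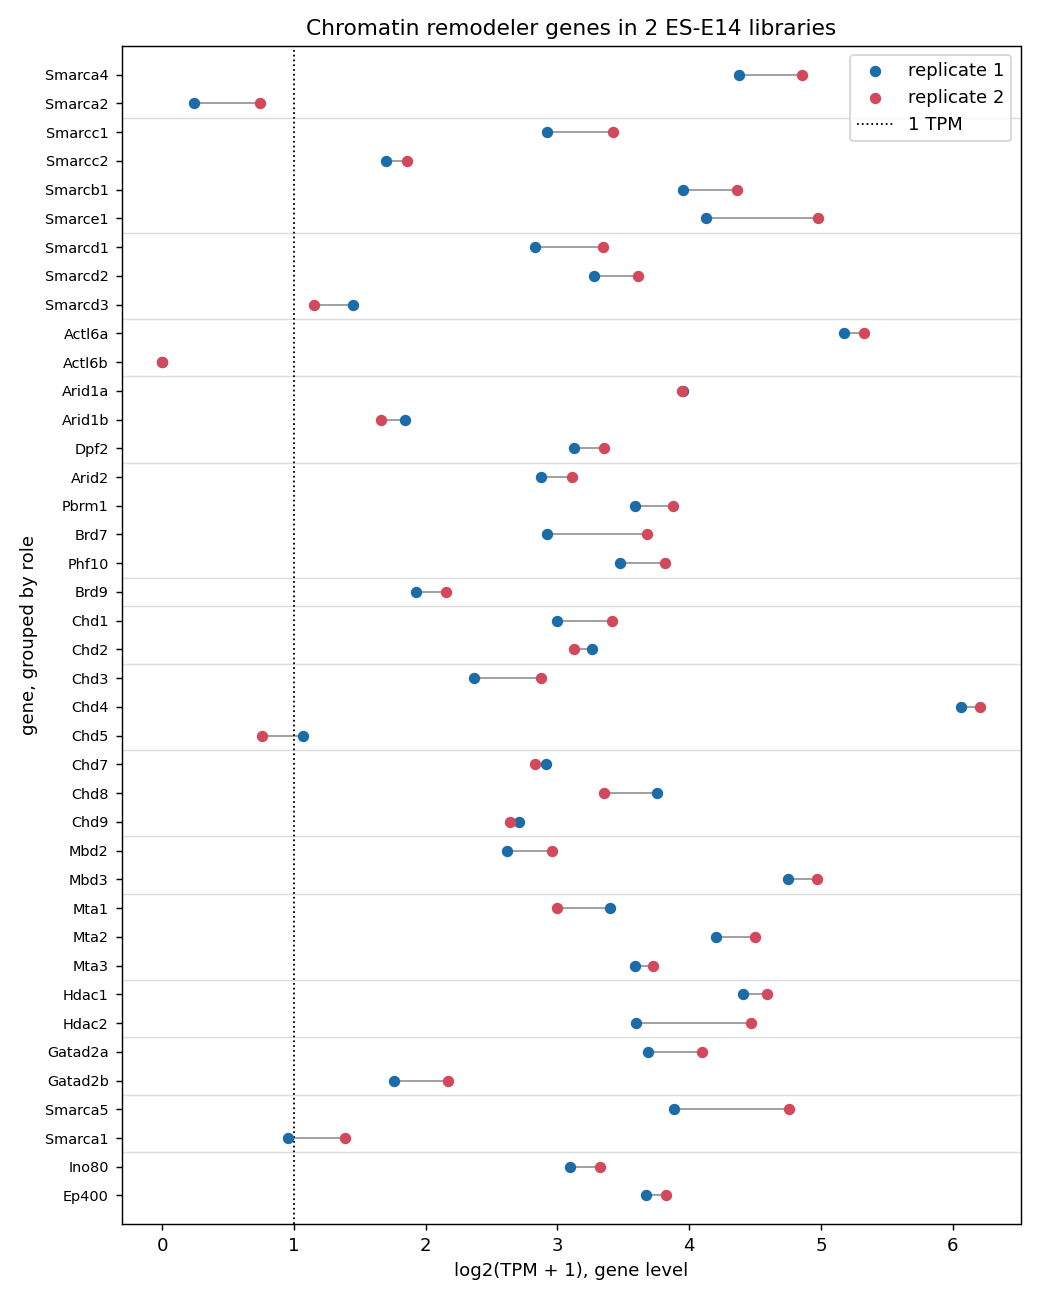
Gene-level expression of the 40 remodeler genes, grouped by role (vertical axis), as log2(TPM + 1) (horizontal axis) in replicate 1 (blue) and replicate 2 (red); a grey line joins the 2 libraries and the dotted line marks 1 TPM. Chd4 stands highest at 65.91 and 72.81 TPM, and Actl6b and Smarca2 lie left of the line in both libraries.

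The upstream sequences of 2 paralog pairs with a large difference in level, and of 1 low paralog with a GC-rich upstream region, show the DNA in front of genes that these cells used to very different degrees. Each sequence is the 200 bases that end 50 bases before the RefSeq start of the gene (assembly GRCm38, equal to mm10), printed 5′ to 3′ on the strand of the gene, with every CG dinucleotide in capitals. They lie at chr3:32708296-32708495 on the plus strand (Actl6a), chr5:137553296-137553495 on the plus strand (Actl6b), chr8:80739510-80739709 on the minus strand (Smarca5), chrX:47892664-47892863 on the minus strand (Smarca1) and chr5:24602053-24602252 on the minus strand (Smarcd3).

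Actl6a: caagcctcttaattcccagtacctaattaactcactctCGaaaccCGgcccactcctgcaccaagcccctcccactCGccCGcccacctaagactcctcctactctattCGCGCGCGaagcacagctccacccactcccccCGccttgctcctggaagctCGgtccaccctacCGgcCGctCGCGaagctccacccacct
Actl6b: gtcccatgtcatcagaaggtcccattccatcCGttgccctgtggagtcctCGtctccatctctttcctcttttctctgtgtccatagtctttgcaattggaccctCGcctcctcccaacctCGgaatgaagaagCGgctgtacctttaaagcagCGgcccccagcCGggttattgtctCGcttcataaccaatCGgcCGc
Smarca5: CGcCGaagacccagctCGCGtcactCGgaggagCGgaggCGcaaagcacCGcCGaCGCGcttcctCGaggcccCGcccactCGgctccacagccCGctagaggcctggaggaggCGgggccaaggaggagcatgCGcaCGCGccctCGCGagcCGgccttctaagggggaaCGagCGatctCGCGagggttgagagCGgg
Smarca1: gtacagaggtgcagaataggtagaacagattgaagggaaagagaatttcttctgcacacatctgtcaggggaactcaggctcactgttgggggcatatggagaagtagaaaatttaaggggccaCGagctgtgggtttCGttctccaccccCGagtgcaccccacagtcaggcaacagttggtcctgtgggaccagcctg
Smarcd3: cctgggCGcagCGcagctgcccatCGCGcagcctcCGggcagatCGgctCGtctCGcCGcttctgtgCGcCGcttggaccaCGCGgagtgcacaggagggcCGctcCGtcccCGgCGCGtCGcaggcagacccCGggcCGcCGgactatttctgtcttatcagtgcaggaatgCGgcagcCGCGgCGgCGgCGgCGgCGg

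Smarca5 holds 27 CG in this window and its low paralog Smarca1 holds 3. The contrast is smaller between Actl6a, with 14, and Actl6b, which had no counted read, with 10, and the low gene Smarcd3 holds 30, the most of the 5. RefSeq gave such a window for 31 of the 40 genes, 38 windows in all because some genes have several starts, and some of these starts lie far from that of the most abundant transcript. The median member window held 17 CG, with a range from 1 to 39, against a median of 4 over all 32851 windows in the table. At least 15 CG were found in 26 of the 38 member windows and in 17.8% of all windows. Among the members the number of CG did not order the paralogs by level, since Smarca2 (27) had more than Smarca4 (17). 2 motifs were searched on both strands. CCAAT, the core of the NF-Y motif, was found in 9 member windows (23.7%, against 28.4% of all windows), belonging to 8 genes, Actl6b and Chd4 among them. The NRF1 motif, GCGC and TGCGC with 1 base of any kind between them, was found in 4 member windows (10.5%, against 2.24% of all windows), those of Smarca4, Smarca5, Dpf2 and Ep400. This motif contains CG itself, and the median member window held more CG, so the 2 shares are not matched in composition. Any overlap between the 2 motifs was ignored, and a match describes the letters only.

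The catalytic subunit of BAF is either SMARCA4 (BRG1) or SMARCA2 (BRM). Smarca4 (chr9:21616169-21704230, plus strand) stood at 19.81 and 27.95 TPM from 8732 and 12057 expected counts. Smarca2 (chr19:26605050-26778322, plus strand) stood at 0.18 and 0.67 TPM from 53 and 184 counts. Smarca4 therefore supplied 99.1% and 97.7% of the summed level of the 2 ATPases, and the lowest Smarca4 value lay above the highest Smarca2 value. The difference was 4.13 ± 0.018 log2 units (SD, n = 2), a spread kept small by the pseudocount, since the plain TPM ratio was 110 in replicate 1 and 41.7 in replicate 2. Under the alternatives on other scales the difference ran from 3.70 to 6.01. On protein-coding transcripts alone Smarca2 stood at 0.11 and 0.24 TPM and Smarca4 at 19.8 and 27.95 TPM. The level of Smarca2 is uncertain in itself, because its deposited TPM lies below its own deposited interval in both libraries. It was higher in replicate 2, as was the sum of the fibroblast markers given above, and the part of such cells in its level was not tested.

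The BAF scaffold and core is formed by SMARCC1 (BAF155) or SMARCC2 (BAF170) with SMARCB1 (SNF5), which contacts the nucleosome, and SMARCE1 (BAF57), an HMG-box protein. Smarcc1 (chr9:110117708-110240178) stood at 6.58 and 9.72 TPM and Smarcc2 (chr10:128459248-128490482) at 2.24 and 2.62 TPM, a difference of 1.4 ± 0.24 log2 units. Smarcc1 made up 74.6% and 78.8% of the pair, and its lowest value was above the highest of Smarcc2. Smarcb1 stood at 14.46 and 19.58 TPM, below Smarca4 in both libraries. Smarce1 was listed at 16.5 and 30.56 TPM, but most of that level came from short noncoding transcripts described below; its coding transcript stood at 3.87 and 8.51 TPM, which moved it from rank 5 to rank 22 of the 40.

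Of the SMARCD (BAF60) subunits, which link the core to transcription factors, Smarcd2 and Smarcd1 were both transcribed and Smarcd3, known from muscle and heart, was low. Smarcd2 stood at 8.7 and 11.24 TPM, Smarcd1 at 6.11 and 9.15 TPM and Smarcd3 at 1.72 and 1.22 TPM. Their shares of the 3 genes were 52.6% and 52.0% for Smarcd2, 37.0% and 42.3% for Smarcd1, and 10.4% and 5.65% for Smarcd3. The low place of Smarcd3 was the same in both libraries and on every scale tried. The order of Smarcd1 and Smarcd2 was not fixed: at gene level Smarcd1 was lower by 0.36 ± 0.13 log2 units, but Smarcd1 had the more expected counts (1422 and 2028, against 1277 and 1497). On protein-coding transcripts Smarcd1 was the higher one, at 6.11 and 9.15 TPM against 5.53 and 8.28 TPM. Smarcd3 was lower in replicate 2. Of the 8 neuron markers 6 were also lower there, each under 1 TPM in a library except Stmn2, while Tubb3 was higher. Among the 8 muscle markers 4 were higher, and the part of such cells was not tested.

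The actin-related subunit is BAF53A (Actl6a) in proliferating cells and BAF53B (Actl6b) in neurons after mitosis. Actl6a (chr3:32706298-32726973), whose upstream sequence is printed above, stood at 35.12 and 39.09 TPM from 3596 and 4290 expected counts, the second level of the 40 genes. Actl6b (chr5:137553517-137569582) had 0 counts in both libraries. Against a floor of 3 counts per library (0.060 and 0.063 TPM), Actl6a was 584-fold and 617-fold higher. The deposited interval of Actl6b, which leaves out its TPM of 0, reached 0.407 and 0.428 TPM. Its posterior mean was 0.22 and 0.23 TPM, so the fold may be smaller than on the floor. The floor covers counting error only, and it does not show that the transcript was absent.

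Canonical BAF carries ARID1A or ARID1B together with DPF2, and PBAF carries ARID2, PBRM1, BRD7 and PHF10 in their place. Arid1a (chr4:133679008-133756769) stood at 14.49 and 14.37 TPM, with 0.01 log2 units between the libraries, and Arid1b at 2.59 and 2.16 TPM. Arid2, which defines PBAF, stood between them at 6.32 and 7.64 TPM. Of the 3 ARID genes, Arid1a made up 61.9% and 59.5%, Arid2 27.0% and 31.6%, and Arid1b 11.1% and 8.94%, an order kept in both libraries. The difference was 2.20 ± 0.12 log2 units between Arid1a and Arid1b and 0.96 ± 0.18 between Arid1a and Arid2.

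The other PBAF subunits were all transcribed. Pbrm1, a protein with several bromodomains, stood at 11.02 and 13.67 TPM, Phf10 at 10.13 and 13.06 TPM and Brd7 at 6.57 and 11.81 TPM. Dpf2, the PHD finger subunit of canonical BAF, stood at 7.71 and 9.22 TPM, below its PBAF counterpart Phf10 by 0.41 ± 0.075 log2 units. With protein-coding transcripts the gap was wider, 1.23 log2 units, with Dpf2 at 2.32 and 3.45 TPM and Phf10 at 6.79 and 9.39 TPM. Brd9, the bromodomain subunit of the non-canonical BAF complex, was the lowest of these at 2.79 and 3.44 TPM, 1.26 ± 0.38 log2 units below Brd7. The order of Brd9 and Brd7 depended on which transcripts were counted. With protein-coding transcripts alone, Brd7 stood at 2.57 and 4.77 TPM and Brd9 at 2.79 and 3.44 TPM, so that each gene led in 1 library.

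NuRD couples a CHD ATPase to histone deacetylases. Chd4 (chr6:125095981-125130591, plus strand) was the most abundant of the 40 genes at 65.91 and 72.81 TPM, from 19557 and 24153 expected counts. Its paralogs were far lower, Chd3 at 4.15 and 6.32 TPM and Chd5, known from neurons and testis, at 1.1 and 0.69 TPM from 711 and 410 counts. Chd4 took 92.6% and 91.2% of the summed level of the 3 ATPases. It exceeded Chd3 by 3.52 ± 0.26 and Chd5 by 5.22 ± 0.32 log2 units, and no interval deposited for the 3 genes overlapped another in either library. The order of Chd3 and Chd5 was less firm. Chd3 led by 1.70 ± 0.58 log2 units at gene level. With transcripts of a complete coding sequence alone it led by 0.28 ± 0.28, at 0.94 and 1.04 TPM against 0.83 and 0.46 TPM. Protein-coding transcripts of Chd4 alone stood at 41.53 and 54.81 TPM, still the highest of the 40. Chd5 was lower in replicate 2, as were 6 of the 8 neuron markers, each under 1 TPM in a library except Stmn2. Tubb3 was higher there, and the part of such cells was not tested.

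The MBD subunit decides between 2 forms of NuRD, since MBD2 binds methylated DNA and mammalian MBD3 does so poorly. Mbd3 (chr10:80392539-80399550) stood at 25.96 and 30.37 TPM, the third level of the 40 genes, and Mbd2 at 5.13 and 6.79 TPM. Mbd3 made up 83.5% and 81.7% of the pair, and the difference was 2.07 ± 0.090 log2 units. Much of this level came from Mbd3-206, a coding transcript of 4 exons. With complete coding transcripts Mbd3 stood at 8.54 and 13.49 TPM, rank 11 of the 40, and the difference from Mbd2 was 1.52. The GATAD2 proteins, which tie the CHD ATPase to the deacetylase core, showed a ratio of the same kind. Gatad2a (chr8:69907076-69996384) stood at 11.85 and 16.15 TPM and Gatad2b at 2.39 and 3.49 TPM, with 83.2% and 82.2% of the pair from Gatad2a. Their difference was 1.93 ± 0.0078 log2 units, and the plain TPM ratio was 4.96 and 4.63.

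In contrast to these, the MTA scaffold and the deacetylases showed no single dominant gene. Mta2 stood at 17.38 and 21.6 TPM, Mta3 at 11.02 and 12.24 TPM and Mta1 at 9.52 and 6.96 TPM. Mta2 made up 45.8% and 52.9% of the 3, Mta3 29.1% and 30.0%, and Mta1 25.1% and 17.1%. The order was the same in both libraries, but the step from Mta3 to Mta1 was 0.46 ± 0.38 log2 units, little more than its spread, and in replicate 1 Mta1 had the more expected counts. With protein-coding transcripts the step was wider, with Mta3 at 9.6 and 11.32 TPM and Mta1 at 5.91 and 5.38 TPM. Mta1 minus Mta3 was then -0.78 ± 0.23 log2 units. Hdac1 stood at 20.19 and 23.06 TPM and Hdac2 at 11.07 and 21.12 TPM, so that the share of Hdac1 was 64.6% and 52.2%. The difference of 0.47 ± 0.49 log2 units was smaller than its spread, and the deposited intervals of the 2 genes were apart in replicate 1 alone. With protein-coding transcripts, Hdac1 (11.69 and 16.41 TPM) led in replicate 1 and Hdac2 (10.13 and 20.14 TPM) in replicate 2. The 2 deacetylases did not differ beyond their spread.

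The CHD enzymes outside NuRD were all detected and lay close together. Chd1, which binds active promoters, stood at 6.96 and 9.65 TPM and Chd2 at 8.58 and 7.71 TPM. This was the 1 pair of 25 in which the higher gene changed between the libraries at gene level (-0.27 and 0.29 log2 units, Chd1 minus Chd2). Chd8 stood at 12.54 and 9.24 TPM, Chd7, the gene mutated in CHARGE syndrome, at 6.53 and 6.09 TPM, and Chd9 at 5.53 and 5.22 TPM. All 3 were lower in replicate 2, and so was Chd2, against 29 of 37 members that were higher there. The lead of Chd8 was smaller without the transcripts not annotated as protein-coding. With protein-coding transcripts Chd8 stood at 6.86 and 5.42 TPM, Chd7 at 6.08 and 5.44 TPM and Chd9 at 5.53 and 5.21 TPM. Chd8 then led Chd9 in both libraries and Chd7 in replicate 1 alone. With complete coding transcripts Chd8 led both paralogs in both libraries. In expected counts Chd9 exceeded Chd8 in both libraries.

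The ISWI ATPases SMARCA5 (SNF2H) and SMARCA1 (SNF2L) space nucleosomes, and SMARCA1 is known from neurons. Smarca5 (chr8:80698507-80739497), whose CG-rich upstream sequence is printed above, stood at 13.76 and 26.07 TPM. Smarca1 (chrX:47809368-47892974) stood at 0.94 and 1.62 TPM. Smarca5 made up 93.6% and 94.1% of the pair, and the difference was 3.15 ± 0.31 log2 units. With protein-coding transcripts it was 2.62 ± 0.34, with Smarca5 at 8.61 and 18.01 TPM and Smarca1 at 0.85 and 1.62 TPM. The level of Smarca5 carries a limit, since 40.9% of the 31-base stretches of its most abundant transcript also occur in other annotated genes, such as Gm13135 (29.1%). Smarca1 was higher in replicate 2, as were the sum of the fibroblast markers and the neuron marker Tubb3. Lower there were 6 of the 8 neuron markers, each under 1 TPM in a library except Stmn2. The part of such cells was not tested. Of the INO80 family, Ino80 stood at 7.55 and 9.0 TPM and Ep400, the ATPase of the TIP60 complex that exchanges histone H2A.Z, at 11.75 and 13.14 TPM. Ep400 was higher by 0.54 ± 0.054 log2 units, but by 0.16 and 0.18 with protein-coding transcripts, and below Ino80 when transcripts with an incomplete coding sequence were left out as well.

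**Figure D2:**
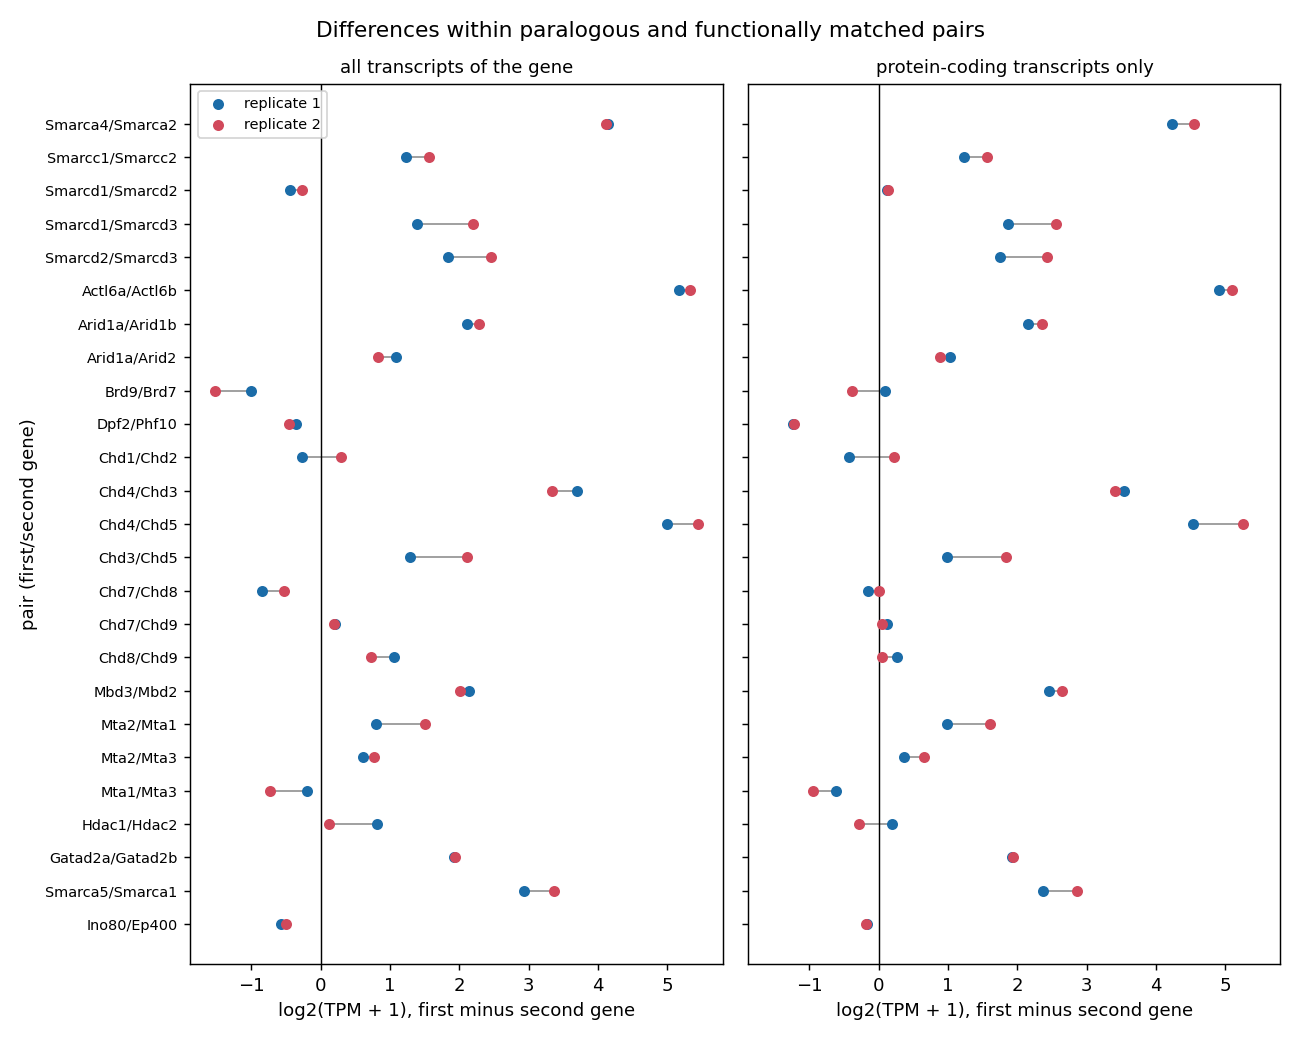
Difference between the genes of 25 pairs, first minus second gene, as log2(TPM + 1) (horizontal axis) in replicate 1 (blue) and replicate 2 (red), from all transcripts of each gene (left panel) and from protein-coding transcripts alone (right panel). Actl6a/Actl6b, Chd4/Chd5, Smarca4/Smarca2, Chd4/Chd3 and Smarca5/Smarca1 lie far to the right in both panels, while Chd1/Chd2 crosses 0 in both panels and Hdac1/Hdac2, Brd9/Brd7 and Chd7/Chd8 cross it in the right panel.

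Over all 25 pairs, the same gene was higher in both libraries in 24, and in 23 of these the deposited TPM intervals were apart in each library. The mean difference was at least 1 log2 unit in 14 pairs and at least 2 in 8: Smarca4/Smarca2, Smarcd2/Smarcd3, Actl6a/Actl6b, Arid1a/Arid1b, Chd4/Chd3, Chd4/Chd5, Mbd3/Mbd2 and Smarca5/Smarca1. Several pairs share a gene, so they are not independent. Expected counts, which grow with transcript length, gave another order than TPM in at least 1 library in 6 pairs: Smarcd1/Smarcd2, Chd7/Chd8, Chd7/Chd9, Chd8/Chd9, Mta1/Mta3 and Hdac1/Hdac2. With 2 libraries an exact test of 2 against 2 values cannot go below p = 0.33, so no p was computed.

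The most abundant transcripts of the members shared almost no sequence with their paralogs. Other transcripts of the members were not checked, and for Chd3 the transcript checked is 430 bases long. Of the 31-base stretches in the most abundant transcript of each of 39 members, none occurred in a paralog on the same strand except for 0.123% of those of Chd4, which Chd3 also holds. Other genes were a larger source of doubt. In 6 members over 5% of the stretches occurred in another annotated gene: Hdac1 (62.7%, mostly Gm10093), Smarce1 (46.6%, mostly Gm8494), Smarca5 (40.9%), Chd2 (6.37%, all in 1810026B05Rik), Smarcc1 (6.35%, mostly Gm7004) and Ep400 (5.52%, mostly Gm12928). Of these, Smarce1, Chd2, Hdac1, Smarca5 and Ep400 were also the 5 members with a fractional expected count, the sign that reads were split between genes.

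The transcript tables held 257 transcripts of the 40 genes. Of the 39 genes with a transcript above 0, the same transcript led in both libraries in 34, and the leading transcript was protein-coding in both in 36. Among the 32 members with several transcripts and 1 TPM or more in both libraries, 28 kept their leader, against a background of 86% of 7431 protein-coding genes. In the 5 genes whose leader changed, the 2 leading transcripts exchanged places. Smarca4 was led by Smarca4-204 in replicate 1 (43.23% of the gene's TPM, then 31.11%) and by Smarca4-202 in replicate 2 (29.57%, then 35.17%), both coding. Smarcc2 went from Smarcc2-203 (48.58%, then 27.81%) to Smarcc2-201 (47.71%, then 72.19%), also both coding. Smarca1, with few counts, went from Smarca1-203 (47.29%, then 27.89%) to Smarca1-202 (28.95%, then 39.31%).

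In the remaining 2 of the 5 a transcript that is not translated to the usual protein took the lead. Dpf2 was led by the coding Dpf2-202 in replicate 1 (21.64%, then 23.48%) and by Dpf2-201, a target of nonsense-mediated decay, in replicate 2 (21.31%, then 26.16%). By the deposited posterior mean shares Dpf2-201 led in both libraries, so this exchange was not seen there. Mbd2 was led by the coding Mbd2-201 (41.95%, then 45.67%) and in replicate 2 by Mbd2-204, which retains an intron (39.79%, then 46.19%). This lead was in TPM only. Mbd2-204 is 494 bases long and had 53.54 and 77.64 expected counts, against 300.28 and 411.77 for Mbd2-201. Of the other genes named as the higher of their set, the leader was steady: Smarcd2-201 (45.7% and 42.08%), Actl6a-201 (47.32% and 63.49%), Arid1a-205 (47.4% and 48.81%), Chd4-202 (37.78% and 41.94%), Chd8-201 (54.71% and 58.69%), Mbd3-206 (43.14% and 43.83%), Mta2-201 (72.83% and 85.18%), Hdac1-201 (57.89% and 71.19%), Gatad2a-202 (64.12% and 64.72%), Smarca5-201 (62.52% and 69.06%) and Ep400-201 (31% and 32.79%). Smarcc1 has 1 transcript in the tables.

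Gene-level TPM can mislead where short transcripts take a large share of it, because a handful of reads on a short transcript gives a high TPM. Smarce1 was led in both libraries by Smarce1-206, a noncoding transcript of 2 exons and 610 bases, with 60.08% and 44.39% of the gene's TPM from 349 and 452 expected counts. The coding Smarce1-201, of 11 exons and 2919 bases, held 23.43% and 27.84% of the TPM but 64.6% and 70.4% of the counts. Chd3 showed the same within its coding transcripts. Its leader, Chd3-207, is 430 bases long and rested on 22.97 and 38.67 counts (26.02% and 30.55% of TPM), while the 40-exon Chd3-202 had 521 and 547 counts. The median member drew 82.9% and 85.4% of its TPM from protein-coding transcripts, and 3 drew less than 50% in both libraries: Smarce1 (23.5% and 27.8%), Dpf2 (30.1% and 37.4%) and Brd7 (39.1% and 40.4%).

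**Figure D3:**
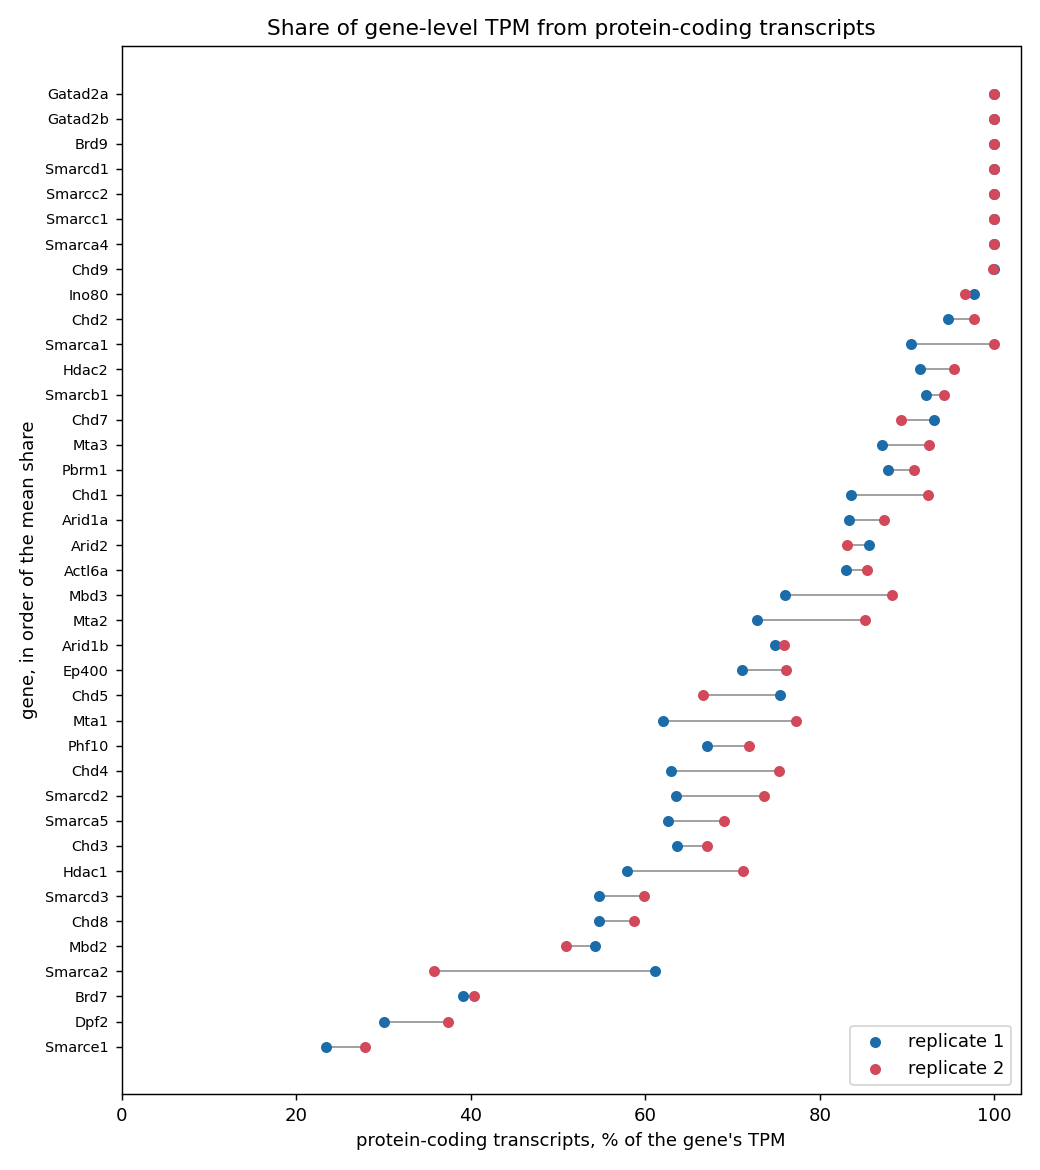
Share of each gene's TPM that came from its protein-coding transcripts (horizontal axis, %) in replicate 1 (blue) and replicate 2 (red), for the 39 remodeler genes with a transcript above 0, ordered by the mean share. Smarce1 is lowest at 23.5% and 27.8%, and Smarcc1, Smarcc2, Smarcd1, Brd9 and Gatad2b are among those at 100% in both libraries.

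Transcripts annotated with a retained intron were found above 0 in 22 of the detected members, with a median of 19.6% of the gene's TPM in replicate 1 and 15.7% in replicate 2. The share was lower in replicate 2 in 18 of the 22, where the background was 72.8% of 4285 protein-coding genes, whose medians were 18.4% and 14.5%. Chd4 stood at 37.0% and 24.7%, Hdac1 at 42.1% and 28.8% and Mta2 at 20.9% and 10.1%. Arid2, Ino80, Mbd2 and Phf10 were the 4 with a higher share in replicate 2. Each side held 1 library, so this difference has no test.

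Of the 37 members with a mean of 1 TPM or more, 29 were higher in replicate 2 and 8 lower, where 71.7% of all such protein-coding genes were higher. The direction followed the scale: the median difference was 0.24 log2 units over the members and 0.23 over protein-coding genes, and after edgeR TMM scaling, DESeq2 size factors or rescaling to protein-coding genes, 19 of the 37 were higher, with medians of 0.0048, 0.024 and 0.0067. None of the 37 was 2-fold apart on this scale, against backgrounds of 2.56% of genes 2-fold higher and 0.535% 2-fold lower in replicate 2. The members farthest up were Smarca5 (0.88 log2 units), Hdac2 (0.87), Smarce1 (0.85) and Brd7 (0.76), and the farthest down were Chd8 and Mta1 (-0.40 each) and Smarcd3 (-0.29). Chd5, whose mean was under 1 TPM, stood at -0.31. Smarca2, also under that limit, had a plain TPM ratio of 3.72 between the libraries, from 53 and 184 counts, which the log2(TPM + 1) scale gives as 0.50. The deposited intervals of the libraries were apart in 25 members with replicate 2 higher and in 3 with replicate 2 lower, where the backgrounds were 50.5% and 13.5%.

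The difference between the libraries moved with base composition. Over 10389 protein-coding genes whose mean reached 1 TPM, the difference and the GC content of the most abundant transcript had Pearson's r = -0.310 and Spearman's rho = -0.321, and over the 37 members r = -0.310 and rho = -0.236. These are correlations across genes, which share the 2 libraries and are not independent replicates, so they are descriptions without a p. Of the 18 members below the median GC content of those genes, 15 were higher in replicate 2, with a median of 0.31 log2 units (0.33 for protein-coding genes). Above it 14 of 19 were higher, with a median of 0.22 (0.12 for protein-coding genes). Smarca5, Hdac2 and Brd7 lay below that median and were high in replicate 2, while Mta1 and Smarcd3 lay above it and were low. Other members went against this: Chd8 (-0.40), Chd2 (-0.14) and Chd9 (-0.070) lay below the median and were lower in replicate 2. Chd3, the highest of the 37 in GC by its 430-base leading transcript, was higher in replicate 2 by 0.51. The part of base composition in these differences was not tested.

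**Figure D4:**
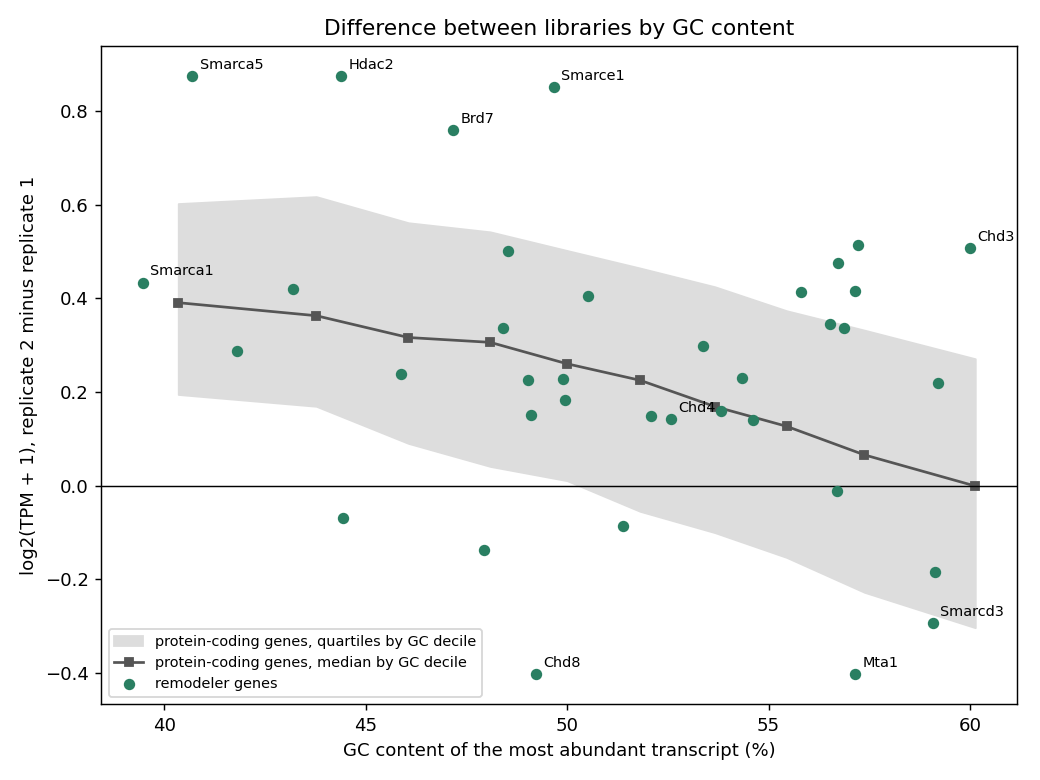
Difference between the libraries, replicate 2 minus replicate 1 in log2(TPM + 1) (vertical axis), against the GC content of each gene's most abundant transcript in percent (horizontal axis), for 37 remodeler genes (green points). The grey line and band give the median and the quartiles of 10389 protein-coding genes by GC decile. The medians run from 0.39 in the lowest decile to -0.00092 in the highest. Members above the band lie at low GC (Smarca5, Hdac2, Brd7, Smarce1) and at high GC (Chd3, Smarcd1, Smarca4, Gatad2a, Smarcb1). Members below it also lie at low GC (such as Chd8, Chd2 and Chd9) and at high GC (such as Mta1).

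Other subunits of the same families were nearly all transcribed. Of 66 further genes, 64 were at 1 TPM or more in both libraries, against the same background of 46.3%, with medians of 6.6 and 7.69 TPM. In replicate 2, 58 of the 66 were higher in TPM, where the background was 71.7%, but 35 were with TMM scaling or rescaled TPM and 37 with DESeq2 size factors. The 2 below the limit belong to BAF: Bicra, a subunit of non-canonical BAF, at 0.65 and 0.76 TPM, and Dpf3, a paralog of Dpf2 known from heart and neurons, at 0.21 and 0.32 TPM. Rbbp7, a histone chaperone of NuRD, was the highest of the other NuRD genes at 31.03 and 68.25 TPM and the 1 gene of the 66 past 2-fold in TPM, though not on the other 3 scales; Zfp296 was the lowest there at 6.3 and 7.13 TPM. Actb, the actin of BAF and INO80 complexes and of the cytoskeleton, led the other BAF genes at 762.94 and 1240.12 TPM.

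In the ISWI list the highest was Bptf, the large subunit of the NURF complex, at 15.26 and 19.45 TPM, and the lowest Baz1a at 3.8 and 5.31 TPM. The INO80 list ran from the AAA+ ATPase gene Ruvbl2 at 41.79 and 45.14 TPM down to Actr5 at 3.71 and 2.66 TPM. The SRCAP and TIP60 list ran from the chromodomain gene Morf4l1 at 30.77 and 53.94 TPM down to Actr6 at 1.96 and 3.27 TPM. Of the other SNF2 enzymes, Atrx, which deposits histone H3.3 with DAXX, was highest at 36.6 and 47.21 TPM and the repair gene Ercc6 lowest at 1.83 and 2.45 TPM. Chd6 stood at 11.83 and 10.86 TPM and Chd1l at 5.48 and 5.76 TPM.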

How the data were processed

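Total RNA of ES-E14 cells was measured in 2 libraries of 1 group. Per the deposited text files, the alignment used mm10 and annotation M4. No source used here names the aligner, the quantifier or the use of strand. Per the file headers, the authors' tables give for each gene and transcript an expected count, TPM over all rows and FPKM. Further columns that the authors deposited hold a posterior mean TPM and the bounds of an interval of unnamed level, read as signal values. The transcript tables deposited by the authors give the percent of the gene's TPM by transcript.

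Gene symbols, transcript types and coordinates came from GENCODE M21 (GRCm38, the assembly of mm10), matched by ID with the version removed: 42462 of 43346 genes and 255 of the 257 transcripts matched. Upstream sequences came from RefSeq (GRCm38). The members, lists, pairs and tests were chosen with earlier results of these data known. All members are named; of each other complex list and marker list the highest, the lowest and those under 1 TPM or at 0; and transcripts that lead the higher gene of a set, differ between libraries or are noncoding. Other transcripts, and marker genes beyond these, were named after their values were seen. Detection was 1 TPM in both libraries, and differences used log2(TPM + 1), with a mean of 1 TPM or more for those between libraries. Expected counts were rounded for TMM factors (edgeR 4.0.16) and size factors (DESeq2 1.42.0) in R 4.3.3. All else ran in Python 3.11.15 with numpy 2.4.6, pandas 2.3.3 and matplotlib 3.10.9. The TMM and DESeq2 scaling was checked on simulated counts with counting error only and with planted changes larger than 2-fold, scored as log2(count + 1). That check covers neither changes near 2-fold nor the log2(TPM + 1) scale used for the members. Depth was 43163300 and 45573512 expected counts.

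Alternatives were limits of 0.5 and 5 TPM, FPKM, posterior mean TPM, the interval's lower bound, rescaling to protein-coding genes without mitochondrial genes, counts per length, a pseudocount of 0.1, no TPM filter but 10 expected counts, each library alone, and protein-coding transcripts. Transcripts with a complete coding sequence, detection by coding transcripts, and other limits and scalings for the other complex genes were added after seeing the data.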

Additional observations from a re-analysis of the deposited data

How the results depend on the processing

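With 1 group of 2 libraries and no test, these results describe the spread between 2 libraries, and the depth allows no statement on genes with under 3 counts, such as Actl6b. No paired analysis was possible because the samples form 1 group. The number of members detected in both libraries (36) ranged from 30 at a limit of 5 TPM to 38 at 0.5 TPM, in FPKM and after rescaling; it was 35 with protein-coding and 34 with complete coding transcripts, and 37 in each library alone. Other complex genes detected were 43 at 5 TPM and 66 after rescaling, against 64. No member was counted as 2-fold apart under any of the 5 alternatives, but Smarca2 (plain TPM ratio 3.72) could not be counted: the limit on mean TPM leaves it out, and without that limit the pseudocount of 1 holds it under 2-fold. Without a replicate this count has no value. In the same alternatives 2.23% to 7.06% of protein-coding genes were 2-fold apart. With posterior mean shares the leading transcript was also the same in 34 members, but Dpf2 joined them and Smarca2 left them; it was the same in 27 among members at 5 TPM or more. The same gene led both libraries in 24 pairs under every alternative on gene-level values, 21 with protein-coding transcripts and 22 with complete coding transcripts. Chd1/Chd2, near 0 at 0.011, changed sign with posterior mean TPM (-0.0019), with protein-coding transcripts (-0.10) and without replicate 2 (-0.27). Of the other pairs, 6 values turned direction, all when transcripts were restricted: with protein-coding transcripts Smarcd1/Smarcd2 went from -0.36 to 0.13 and Hdac1/Hdac2 from 0.47 to -0.045; with complete coding transcripts Smarcd1/Smarcd2 was 0.25, Hdac1/Hdac2 -0.045, Chd7/Chd9 -0.030 (0.20 before) and Ino80/Ep400 0.14 (-0.54 before). The restriction removes noncoding transcripts by its construction. Leaving out single libraries aside, 57 other values of pairs moved by more than 1 SD and 87 by less.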
